A study of Homo sapiens with 16 samples.

Results

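Pseudouridine synthase 7 (PUS7) is a stand-alone enzyme that recognises uridines in the sequence UNUAR, in which the third base is the target, N is any base and R is A or G. The uridines examined here are all listed messenger RNA (mRNA) uridines with U at position -2, A at +1 and A or G at +2. They were chosen by sequence alone, from the 31 bases that the deposited tables print around each position, on protein-coding genes outside the mitochondrial chromosome. The rule found 1980 distinct sequences at 1979 positions on 1061 genes. They were set against 183317 other mRNA uridine sequences, and the tables hold 719918 positions of every base and RNA class in all.

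The assay reads reverse transcription stops. The reagent CMC is retained on pseudouridine (Ψ) after alkali, where its bulk blocks reverse transcription, and Ψ is read from an excess of stops in treated over untreated RNA. The stop ratio is the number of stop reads divided by the reads covering that position, and the fold is the treated stop ratio over that of the untreated control. Polyadenylated RNA was fragmented before treatment. There were 16 libraries in 8 groups of 2 replicates. HEK293T, an embryonic kidney line used here as wild type, had CMC-treated libraries with Terminator exonuclease (CMC+Ter), CMC-treated libraries without it (CMC+) and untreated libraries (CMC-). HCT116 is a colorectal carcinoma line. Its DKC1 knockdown, HCT116-shDKC1, carries a short hairpin RNA against DKC1, the catalytic subunit of the snoRNA-guided H/ACA pseudouridine synthase, and had CMC+Ter and CMC- libraries. Wild-type HCT116 had CMC+Ter, CMC+ and CMC- libraries. According to the labels, the CMC+Ter libraries also differ from the CMC+ and CMC- libraries by a 5′ adapter and a restriction enzyme step, so Terminator and those steps cannot be told apart. Each of the 10 tables sets 1 treated library beside the CMC- library of the same replicate. The HEK293T CMC+Ter and CMC+ tables share their CMC- libraries. The HCT116 CMC+Ter and CMC+ tables share theirs by the labels, but the control totals were 27272000 and 31262000 reads in the CMC+Ter tables and 8940000 and 10230000 reads in the CMC+ tables. No label says that replicates came from separate cultures, so p-values measure only the spread between these libraries, which may be technical. The tables give no expression level for DKC1, and no test of its knockdown was made. The median number of CMC- reads covering its listed positions was 5 over 3 positions in the HCT116-shDKC1 CMC+Ter tables, against 14 over 4 positions in the HCT116 CMC+Ter tables. Of the other H/ACA genes, NOP10 and NHP2 had 23 and 23 in HCT116-shDKC1, against 21 and 24.5 in HCT116. GAR1 had 9 over 2 positions in HCT116-shDKC1, against 5 over 1 in HCT116.

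Library totals ran from 8653000 to 31262000 reads (rounded). The median number of reads covering a PUS7-context uridine was 34 to 53 in treated libraries and 36 to 111 in control libraries of the CMC+Ter tables, and 33 to 50 against 32 to 49.7 in the CMC+ tables. The median stop percentage was 13.2 to 19.5 in treated and 6.05 to 9.07 in control libraries of the CMC+Ter tables, and 11.6 to 18.1 against 6.53 to 9.52 in the CMC+ tables. The tables list no position under 5 treated stop reads, under 1 control stop read or under a fold of 1, and this listing keeps every log2 fold at or above 0. As a check of the lines, the epithelial genes KRT8, KRT18, EPCAM and CDH1 had 556, 333, 70 and 9 listed positions in the HCT116 CMC+ tables and at most 2 in the HEK293T CMC+ tables. VIM, a mesenchymal filament gene, had 716 listed positions in the HEK293T CMC+ tables and 0 in any HCT116 table.

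Pseudouridine is an isomer of uridine that base-pairs with A as uridine does. Human cells make it by a guided and an unguided route. In the guided route a box H/ACA small nucleolar RNA pairs with the target and dyskerin, the product of DKC1, isomerises the base. In the unguided route, single-protein enzymes such as PUS7, PUS1 and TRUB1 recognise sequence or shape directly. PUS7 acts on transfer RNA and on mRNA, and its UNUAR sequence includes the stop codons UAA and UAG when the codon before them has U in the middle. The study's title concerns snoRNA-guided sites, and the PUS7 context is the sequence of an enzyme that works without a guide.

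The following 21-base windows show the PUS7-context uridines that passed the position test described further on, with HNRNPA2B1 added because it passed in a fit on fewer tables. Each is written 5′ to 3′ on the transcript strand with T for U, and capitals mark the UNUAR bases, of which the third is the target. They are shown to let the shared motif and the different flanks be read side by side. The coordinate of the target uridine is on hg38, the build in the submitters' processing notes.
EEF2 stop codon, chr19:3976556, minus strand: ggacaaatTGTAGgcggccct
EEF2 3′ UTR, chr19:3976143, minus strand: agatgattTCTAGcaggcagg
RPLP1 coding, chr15:69455210, plus strand: atctgcaaTGTAGgggccggt
RPL3 coding, chr22:39314750, minus strand: cctgctcgTGTAGccttctct
RPS27 coding, chr1:153991591, plus strand: ccacggtcTTTAGccatgcac
PKM coding, chr15:72207224, minus strand: cgtggtgaTCTAGgcattgag
RPL15 coding, chr3:23918453, plus strand: acgttataTATAGgattcgtg
IER3 3′ UTR, chr6:30743422, minus strand: gtcgtaagTTTAGgaggtgac
MTRNR2L1 5′ UTR, chr17:22524017, plus strand: cctaaccgTGTAAaggtagca
HNRNPA2B1 coding, chr7:26196573, minus strand: ttcagagtTCTAGgagtggaa

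Most PUS7-context uridines were seen once. Of the 1980 sequences, 1326 (67.0%) were listed in 1 table and 359 (18.1%) in 2. The same count was not made for other mRNA uridines, so it is not shown to be particular to the context. Only RPLP1 and RPL3, both proteins of the large ribosomal subunit, had one listed in all 10 tables, and 4 sequences were listed in 9. The HEK293T CMC+Ter tables held 396 and 403 of them and the HEK293T CMC+ tables held 575 and 857. The HCT116-shDKC1 CMC+Ter tables held 154 and 124, the HCT116 CMC+Ter tables held 141 and 115, and the HCT116 CMC+ tables held 198 and 273. The genes with most of them were SRRM2, a splicing coactivator, with 24, the RNA-binding protein gene HNRNPA2B1 with 18, NUCKS1 with 18, the DNA-dependent protein kinase gene PRKDC with 15 and the fatty acid desaturase gene SCD with 14.

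The PUS7 context was rarer among listed mRNA uridines than in the transcripts they came from. It made up 0.594% ± 0.0187 (SD, n = 2 tables) of distinct listed mRNA uridines in HEK293T CMC+Ter and 1.46% ± 0.0258 in HEK293T CMC+. The share was 0.991% ± 0.157 in HCT116-shDKC1 CMC+Ter, 0.854% ± 0.0920 in HCT116 CMC+Ter and 1.23% ± 0.0987 in HCT116 CMC+. Among all uridines of 1 coding transcript for each of 7721 genes with a listed mRNA uridine it was 2.87%, or 203782 uridines. This transcript share was not matched by region. Of these transcript uridines 41.9% were coding and 53.7% in the 3′ UTR, against 68.9% and 17.9% of other listed mRNA uridines. Within transcripts, 24.3% of the context was coding and 73.1% in the 3′ UTR. The part of region in the low share was not tested. All 10 tables lay below 2.87%, and both CMC+Ter tables lay below both CMC+ tables within HEK293T and within HCT116. The difference was -0.866 percentage points in HEK293T and -0.378 in HCT116, each with an exact two-sided permutation p of 0.333, the smallest that 2 tables against 2 allow.

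The base after the uridine moved with the same comparison. Uridines followed by A, which every PUS7-context uridine is, were 7.19% of those listed in HEK293T CMC+Ter and 17.2% in HEK293T CMC+, against 17.5% of transcript uridines. Those followed by G were 71.0% in HEK293T CMC+Ter and 50.4% in HEK293T CMC+, against 30.6% in transcripts. In HCT116-shDKC1 CMC+Ter 9.85% were followed by A and 53.2% by G, in HCT116 CMC+Ter 9.98% and 54.9%, and in HCT116 CMC+ 14.2% and 49.1%. The part of this base preference in the low share of the PUS7 context was not tested.

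**Figure D1:**
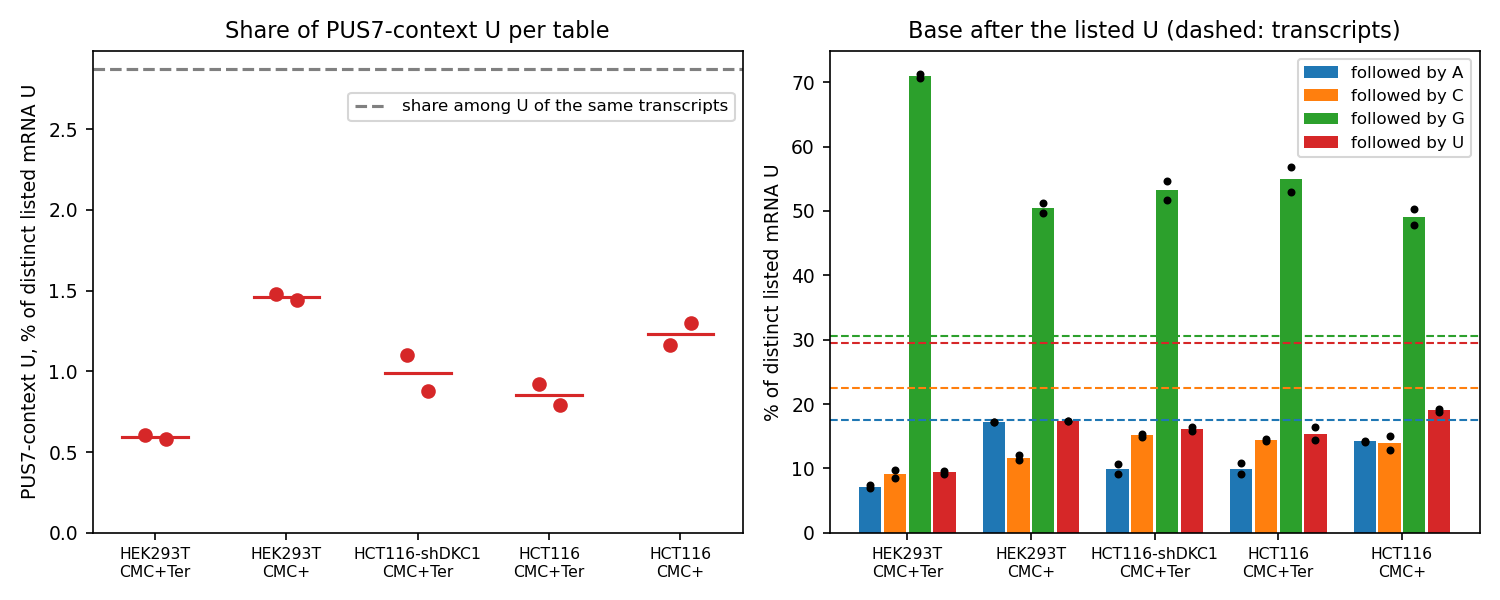
Left, PUS7-context uridines as a percentage of distinct listed mRNA uridines in each table (points, 1 per table) with group means (lines) and the transcript share of 2.87% (dashed). Right, the base after each listed mRNA uridine as a mean percentage over 2 tables (bars, with points for tables) and in transcripts (dashed): in every group G is the most frequent following base, and the PUS7-context share stays under the transcript share.

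The stop-ratio fold of PUS7-context uridines was no higher than that of other mRNA uridines. The median log2 fold was 0.91 ± 0.01 for PUS7-context and 0.97 ± 0.04 for other mRNA uridines in HEK293T CMC+Ter (SD, n = 2 tables). In HCT116-shDKC1 CMC+Ter it was 0.91 ± 0.12 against 0.95 ± 0.07, and in HCT116 CMC+Ter 0.97 ± 0.00 against 1.05 ± 0.10. Without Terminator it was 0.72 ± 0.05 against 0.73 ± 0.04 in HEK293T and 0.72 ± 0.01 against 0.74 ± 0.04 in HCT116. The share with a fold of at least 2 was 46.0% to 49.6% of PUS7-context uridines and 45.5% to 56.0% of other mRNA uridines over the CMC+Ter tables, and 33.3% to 37.7% against 34.1% to 37.3% over the CMC+ tables.

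Taking 1 difference of medians per table, the PUS7 context lay below other mRNA uridines in all 6 CMC+Ter tables, by a mean log2 difference of -0.06 ± 0.05 (SD, n = 6 tables). The exact two-sided sign-flip permutation p was 0.03125, the smallest that 6 tables can give, and 0.0625 after adjustment over the 2 such tests. With 0.5 added to the stop reads the mean was -0.020 (exact permutation p = 0.781), and over positions listed in both tables of a group it was 0.013 (exact permutation p = 0.688). In the CMC+ tables the difference was -0.01 ± 0.03 with 2 of 4 tables above 0 (exact permutation p = 0.75, adjusted 0.75, smallest possible 0.125). The difference in HCT116-shDKC1 CMC+Ter was -0.04, against -0.08 in HCT116 CMC+Ter, a gap of 0.04 (exact permutation p = 0.667). It was -0.05 in HEK293T CMC+Ter, against -0.08 in HCT116 CMC+Ter, a gap of 0.03 (exact permutation p = 1), where 0.333 is the smallest p possible. The shared HEK293T and HCT116 control libraries mean that the CMC+Ter and CMC+ values are not independent.

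The sign depended on which uridines stood for comparison. Against other mRNA uridines followed by A, PUS7-context uridines were higher in 6 of 6 CMC+Ter tables, by 0.07 ± 0.01. Against uridines followed by A and then A or G without U at -2 they were higher in 6 of 6, by 0.08 ± 0.06. Both comparisons were added after the data had been seen, and each gave an exact permutation p of 0.03125, the smallest possible. Against other mRNA uridines of the same gene the mean difference was 0.05 with 5 of 6 tables above 0 (exact permutation p = 0.281).

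Neighbouring sequence classes gave the scale of these differences. The A-followed class had group medians of 0.84 in HEK293T CMC+Ter, 0.84 in HCT116-shDKC1 CMC+Ter and 0.89 in HCT116 CMC+Ter. Listed A, C and G positions on mRNA, none of which can be Ψ, had medians of 0.88, 0.80 and 0.89 in the same groups. In HCT116 CMC+Ter, A, C and G in the very flanks of the PUS7 context had medians of 0.97, 1.00 and 1.09, beside 0.97 for U. In HEK293T CMC+Ter the same flank bases had 0.94, 0.85 and 0.89, beside 0.91 for U, and in HCT116-shDKC1 CMC+Ter 0.89, 0.84 and 0.93, beside 0.91. U thus lay between the other bases in those groups and, in HCT116 CMC+Ter, above none of them by more than 0.01. The GUUCNA context of TRUB1, another stand-alone synthase, had 1.11 ± 0.10 in HEK293T CMC+Ter, 1.30 ± 0.57 in HCT116-shDKC1 CMC+Ter and 1.61 ± 0.43 in HCT116 CMC+Ter, above the PUS7-context median in each group mean.

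**Figure D2:**
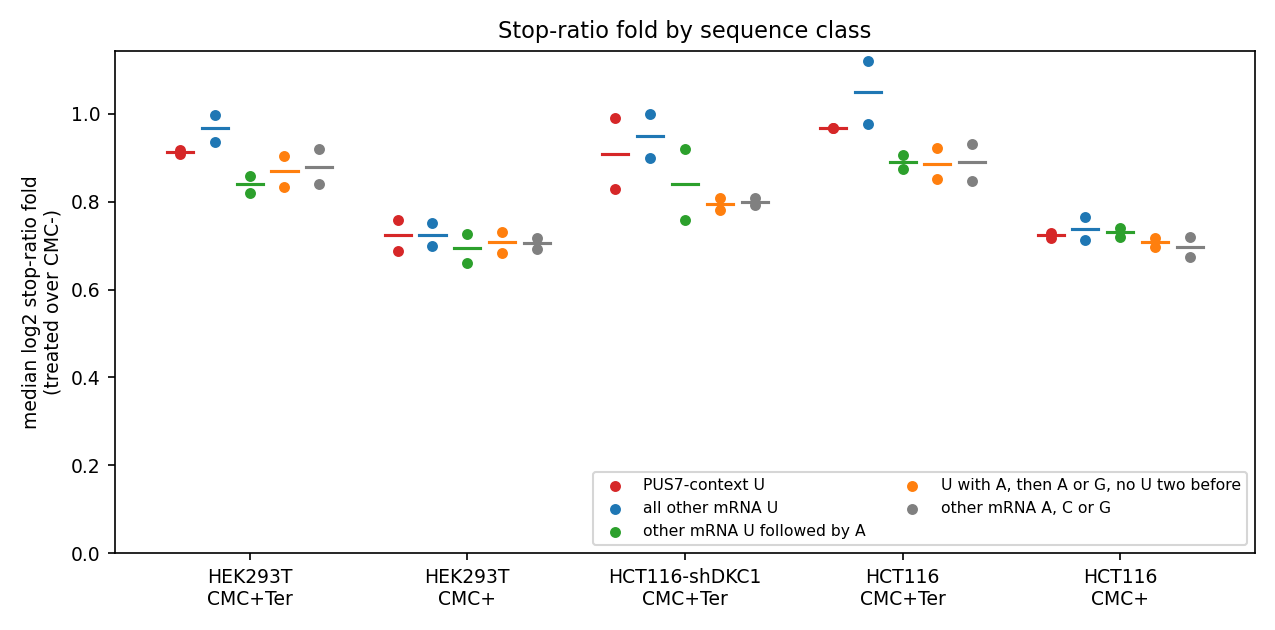
Median log2 stop-ratio fold (treated over CMC-) per table for PUS7-context uridines, all other mRNA uridines, other mRNA uridines followed by A, uridines followed by A and then A or G without U at -2, and other mRNA A, C or G. Points are tables and lines are group means. In the CMC+Ter groups PUS7-context uridines lie below all other mRNA uridines on average and above those followed by A, with differences of about 0.1 or less.

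Among themselves, PUS7-context uridines differed by the second base after the target. With G at +2 (UNUAG) the median log2 fold was 1.00, against 0.78 with A (UNUAA) in HEK293T CMC+Ter. It was 1.06 against 0.84 in HCT116-shDKC1 CMC+Ter and 1.07 against 0.73 in HCT116 CMC+Ter. G lay above A in 6 of 6 CMC+Ter tables, by a mean of 0.26 ± 0.09 (SD, n = 6), and in 3 of 4 CMC+ tables, by 0.06 ± 0.06. Uridines without U at -2 also had the higher fold with G, in all 10 tables, by 0.02 to 0.34 in the CMC+Ter tables and 0.02 to 0.14 in the CMC+ tables. The direction was therefore shared by sequences that lack the U at -2. The gap was larger in the PUS7 context in each CMC+Ter table, where it ran from 0.18 to 0.44, and this was not tested.

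**Figure D3:**
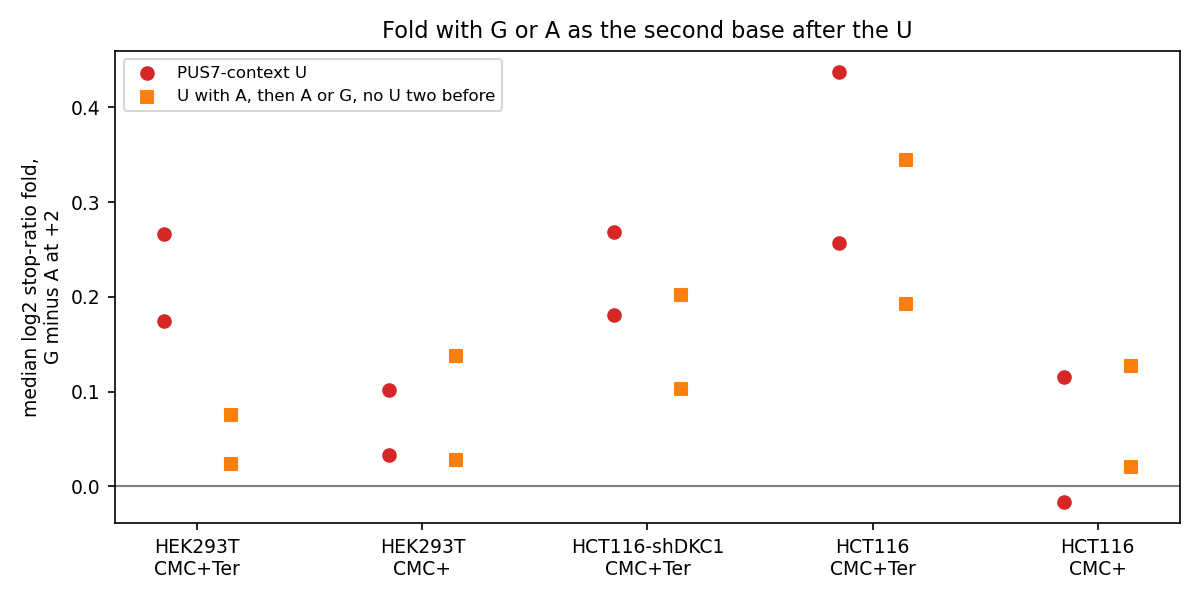
Difference of median log2 stop-ratio fold between uridines with G and with A at +2, per table (points), for PUS7-context uridines and for uridines with the same A and R but no U at -2. All 6 CMC+Ter tables lie above 0 for both classes, and 1 HCT116 CMC+ table lies below 0 for the PUS7 context.

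Within the PUS7 context, UNUAG made up a larger share of listed uridines than of transcript uridines. G at +2 was found in 69.9% of PUS7-context uridines in HEK293T CMC+Ter, 45.5% in HEK293T CMC+, 60.7% in HCT116-shDKC1 CMC+Ter, 65.9% in HCT116 CMC+Ter and 50.5% in HCT116 CMC+, against 37.4% of the same context in transcripts. Listed uridines with A and then A or G but no U at -2 had similar shares of G, at 69.7% and 75.2% in the HEK293T CMC+Ter tables, 49.8% and 49.0% in HEK293T CMC+, 53.9% and 63.3% in HCT116-shDKC1 CMC+Ter, 62.3% and 62.7% in HCT116 CMC+Ter and 52.9% and 49.3% in HCT116 CMC+. UCUAG and UGUAG led in HEK293T CMC+Ter with 23.3% and 21.9% of the context, against 7.77% and 9.78% in transcripts. UUUAA, the most frequent member of the context in transcripts at 25.5%, was 10.3% there. The median log2 fold in HEK293T CMC+Ter ran from 1.10 for UAUAG, 1.03 for UGUAG, 0.99 for UUUAG and 0.97 for UCUAG through 0.91 for UGUAA and 0.83 for UUUAA to 0.67 for UCUAA and 0.59 for UAUAA. In these means over 2 tables the 4 contexts ending in G stood above the 4 ending in A, but the order did not hold in each table or group. In HEK293T CMC+Ter replicate 1 UGUAA had 1.00, above 0.90 for UCUAG and 0.98 for UUUAG. In HCT116-shDKC1 CMC+Ter UAUAG had 0.67, below UAUAA at 0.81 and UGUAA at 0.89, and in HCT116 CMC+Ter UAUAA and UGUAG both had 0.95.

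By place in the mRNA, 53.3% of PUS7-context positions were coding, 33.0% in the 3′ UTR and 8.29% in the 5′ UTR, against 68.9%, 17.9% and 8.77% of other listed mRNA uridines. The context itself is unevenly spread, with 24.3% of its transcript uridines coding, 73.1% in the 3′ UTR and 2.63% in the 5′ UTR. In coding sequence, 36 of the positions (3.41%) fell on the first codon base, 473 (44.8%) on the second and 546 (51.8%) on the third, against 24.2%, 42.1% and 33.6% of other uridines. UAA and UAG in frame are stop codons, and 35 of those 36 were the first base of an annotated stop codon. Ribosomal protein genes held 6.01% of PUS7-context positions and 4.43% of other listed mRNA uridines.

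Folds in the 5′ UTR were the lowest of the regions for both classes in the CMC+Ter tables, with table medians of 0.38 to 0.59 for the PUS7 context and 0.53 to 0.65 for other mRNA uridines. Coding medians were 0.95 to 1.31 and 0.95 to 1.19, and 3′ UTR medians 0.91 to 1.35 and 1.05 to 1.37. In the CMC+ tables the coding medians were 0.71 to 0.80 and 0.69 to 0.76. These region ranges overlap between the classes. Among the positions named here, all in the 5′ UTR were on MTRNR2L1 or MTRNR2L12, genes that resemble mitochondrial MT-RNR2. How many other 5′ UTR positions were on such genes was not counted.

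The 35 stop-codon uridines were the exception in level. They made up 1.77% of PUS7-context positions, whereas 394 other uridines (0.217%) began a stop codon. In transcripts, 1044 of the 203782 uridines in the context began one. The median log2 fold of the PUS7-context stop-codon uridines was 1.19 to 2.18 over the 6 CMC+Ter tables, against 0.90 to 1.46 for other stop-codon uridines. It lay above the other class in each table. In the CMC+ tables it was 0.41 to 0.58, against 0.70 to 0.82, below the other class in each table. Only 2 to 12 PUS7-context stop-codon uridines were listed in a table, so single positions such as that of EEF2 weigh on the medians, and no test was made of this split.

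**Figure D4:**
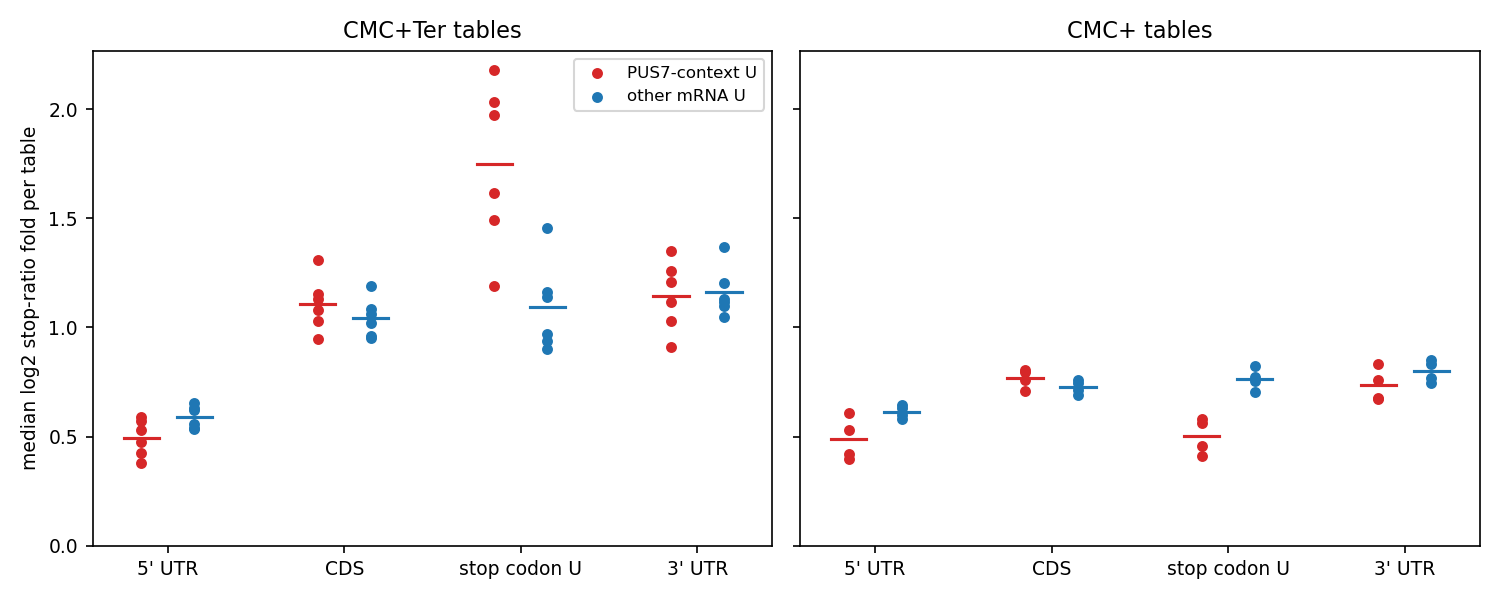
Median log2 stop-ratio fold per table by mRNA region for PUS7-context and other mRNA uridines, in the CMC+Ter tables (left) and the CMC+ tables (right). Points are tables and lines are means over tables. At the first U of a stop codon the PUS7-context points run from 1.19 to 2.18 with Terminator and from 0.41 to 0.58 without it.

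Stop-codon uridines listed in several tables included those of EEF2, P4HB, ACTG1 and ACTB. EEF2, the elongation factor that moves the ribosome along the mRNA, is given with the called positions. P4HB, a protein disulfide isomerase of the endoplasmic reticulum, had 13.5% and 13.2% stops in the HEK293T CMC+ replicates, against 10.3% and 9.23% in CMC-. Its HCT116 CMC+Ter replicate 2 had 28.6%, against 5.77% in CMC-. HEK293T CMC+Ter replicate 1 had 14.3%, against 10.3% in CMC-, and HCT116 CMC+ replicate 2 had 7.08%, against 5.77% in CMC-. ACTG1, a cytoplasmic actin, had 5.02% and 2.56% in HCT116 CMC+Ter, against 2.07% and 1.19% in CMC-. HCT116-shDKC1 CMC+Ter replicate 1 had 3.43%, against 2.60% in CMC-. Its near-identical relative ACTB had 9.78% in HCT116-shDKC1 CMC+Ter replicate 1, against 2.39% in CMC-, and 4.46% in HCT116 CMC+Ter replicate 2, against 2.28%. Reads of the actins are uncertain, since how they were assigned between such similar genes was not examined. The 31 bases around each of these uridines occurred at 1 listed position, and the counts behind these values are whole. The windows of these stop codons, with capitals on UNUAR as before, let the actin pair be read side by side.
ACTG1, chr17:81510692, minus strand: caaatgctTCTAAacggactc
ACTB, chr7:5527750, minus strand: caaatgctTCTAGgcggacta
P4HB, chr17:81844014, minus strand: agatgaacTGTAAtacgcaaa

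Position by position, few PUS7-context uridines could be tested. edgeR's quasi-likelihood test was fitted to stop reads with covering reads as the offset, over positions listed in every table of a fit and with 10 or more stop reads in no fewer than 2 libraries. A call needs a Benjamini-Hochberg adjusted p under 0.05, over all tested positions of every base and RNA class, and a fold of at least 2. In HEK293T 23 of the 1979 positions on 21 genes were tested. In the joint fit of HCT116-shDKC1 and HCT116 with Terminator it was 15 on 11 genes, and in HCT116 CMC+ 19 on 15 genes. The 15 included uridines of MTRNR2L1 and MTRNR2L12, and the 19 uridines of MTRNR2L12 and MTRNR2L8, all relatives of mitochondrial MT-RNR2.

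With Terminator, 3 of 23 PUS7-context uridines (13.04%) were called higher in HEK293T CMC+Ter than in CMC-, beside 12.3% of all tested positions and 18.2% of other tested mRNA uridines. In HCT116-shDKC1 it was 8 of 15 (53.3%), beside 19.7% of all and 29.5% of other mRNA uridines, and in HCT116 8 of 15 (53.3%), beside 24.9% and 37.0%. The HEK293T share is near its background. The median log2 change of the tested members of the context was 0.74 in HEK293T (range 0.19 to 1.47), against 0.53 over all positions and 0.75 over other mRNA uridines. In HCT116-shDKC1 it was 1.30 (0.39 to 2.43), against 0.57 and 0.77, and in HCT116 1.05 (0.03 to 2.36), against 0.64 and 0.86. Set against other mRNA uridines, the order of medians in HCT116-shDKC1 and HCT116 was the opposite in fits on a comparison's own 2 tables, given further on. At an unadjusted p under 0.05 the counts were 11, 11 and 10. The HEK293T count was 0 without CMC+Ter replicate 2 and 1 without any of CMC+Ter replicate 1, CMC- replicate 1 or CMC- replicate 2. It was 4 or 5 in HCT116-shDKC1 and 3 or 4 in HCT116 without any 1 of that line's own libraries, and TMM offsets on stop reads alone left 0 in HEK293T and 1 in each of HCT116-shDKC1 and HCT116. DESeq2 called 0 in HEK293T, the EEF2 pair, RPLP1 and RPS27 in HCT116-shDKC1, and the EEF2 stop codon, RPLP1, RPS27 and PKM in HCT116. RPS27 in HCT116-shDKC1 passed under all 14 alternatives run, and the EEF2 stop codon in both HCT116 populations under all but TMM.

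Without Terminator none was called. HEK293T CMC+ against CMC- gave 0 of 23, with 1 at an unadjusted edgeR p under 0.05 and 0 by DESeq2. That stands beside 1.4% of all positions and 0.0351% of other mRNA uridines. HCT116 CMC+ against CMC- gave 0 of 19, with 1 at an unadjusted edgeR p under 0.05 and 0 by DESeq2, beside 1.65% and 0.124%. The lowest adjusted p by edgeR was 0.310 in HEK293T and 0.381, at RPL19, in HCT116. The median log2 change was 0.37 (0.04 to 1.35) in HEK293T, against 0.29 over all positions and 0.45 over other mRNA uridines. In HCT116 it was 0.31 (0.09 to 1.12), against 0.20 and 0.39. The context thus lay above all positions and below other mRNA uridines in both lines. HEK293T CMC+Ter against CMC+ gave 1 of 23 (4.35%), beside 0.897% of all positions and 1.12% of other mRNA uridines. In it 20 of 23 changes were above 0 with a median of 0.28, against 0.22 over all and 0.29 over other mRNA uridines. That 1 call was lost without any 1 of the CMC+Ter or CMC+ libraries.

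EEF2 carried the call at its stop codon, and was the only gene of the context called in all 4 comparisons that gave a call. The position had 8.75% and 10.7% stops in the HEK293T CMC+Ter replicates, 5.08% and 4.26% in CMC+, and 3.62% and 3.83% in CMC-. Both CMC+Ter values lay above both CMC+ values, and these above both CMC- values. It had 7.94% and 8.82% in HCT116-shDKC1 CMC+Ter, against 1.25% and 2.22% in CMC-. In HCT116 it had 11.6% and 6.99% in CMC+Ter, against 1.82% and 1.90% in CMC-. No treated value overlapped a control value in either population. The listing keeps a treated value at or above the control of its own replicate, here and at the positions below. Such separation was therefore partly set by the listing, and its share over all positions was not counted. HCT116 CMC+ replicate 2, the only one of its kind to list it, had 2.07%, against 1.64% in its control. The log2 change was 1.36 ± 0.34 (SE) in HEK293T CMC+Ter against CMC- (edgeR adjusted p = 0.00142) and 1.09 ± 0.32 against CMC+ (adjusted p = 0.0293). It was 2.18 ± 0.46 in HCT116-shDKC1 (edgeR adjusted p = 3.3e-05) and 2.23 ± 0.49 in HCT116 (adjusted p = 5.1e-05). The HEK293T CMC+Ter call against CMC- was lost without CMC+Ter replicate 2, where the log2 change was 1.17.

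A second EEF2 uridine in the 3′ UTR of the same exon was called in the same 3 populations. It had 7.89% and 8.03% in HEK293T CMC+Ter, 7.32% and 5.48% in CMC+, and 3.02% and 4.65% in CMC-. It had 17.4% and 7.10% in HCT116-shDKC1 CMC+Ter, against 5.03% and 2.24% in CMC-, and 19.1% and 10.0% in HCT116 CMC+Ter, against 7.51% and 3.94% in CMC-. Treated and control values did not overlap in any of these, which the listing favours. Replicate 1 stood above replicate 2 in treated and control libraries of both HCT116 populations. HCT116 CMC+ listed the position in replicate 2, with 4.01%, against 3.59% in its control. Its fitted log2 change was 1.09 ± 0.39 in HEK293T (edgeR adjusted p = 0.0382), 1.72 ± 0.44 in HCT116-shDKC1 (adjusted p = 0.000584) and 1.33 ± 0.42 in HCT116 (adjusted p = 0.0043). The HEK293T call was lost without any 1 of its 4 CMC+Ter and CMC- libraries, with log2 changes of 0.76 to 1.53. The HCT116-shDKC1 and HCT116 calls were lost without either replicate 1 library, at 1.63 and 1.33.

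Ribosomal protein genes gave 4 of the called positions. RPLP1, an acidic protein of the large-subunit stalk, had 7.38% and 7.63% in HEK293T CMC+Ter, 5.95% and 5.12% in CMC+, and 4.57% and 4.07% in CMC-. It had 13.2% and 8.88% in HCT116-shDKC1 CMC+Ter, against 4.23% and 3.21% in CMC-, and 8.43% and 11.0% in HCT116 CMC+Ter, against 4.01% and 2.995% in CMC-. The order CMC+Ter above CMC+ above CMC- held without overlap in HEK293T. The log2 change was 1.54 ± 0.33 in HCT116-shDKC1 (edgeR adjusted p = 3.8e-05) and 1.51 ± 0.34 in HCT116 (adjusted p = 6.2e-05). In HEK293T it was 0.78, with an edgeR adjusted p of 0.0320 but under the fold minimum. The HCT116 call was lost without either replicate 2 library, at a log2 change of 1.07.

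RPS27, a protein of the small subunit, had 15.2% and 18.3% in HCT116-shDKC1 CMC+Ter, against 2.50% and 3.55% in CMC-. In HCT116 it had 13.4% and 11.5% in CMC+Ter, against 1.92% and 4.29% in CMC-. Its 31 bases also match AC002075.2, AC099336.2 and AC099560.2, so reads may have been shared among the copies. Its fitted log2 change was 2.43 ± 0.48 in HCT116-shDKC1 (edgeR adjusted p = 7.5e-06), the lowest p of the context, and 1.91 ± 0.45 in HCT116 (adjusted p = 0.000136).

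RPL3, a core protein of the large subunit, had 3.11% and 3.02% in HEK293T CMC+Ter, 3.84% and 3.48% in CMC+, and 2.98% and 2.55% in CMC-. It had 4.35% and 4.71% in HCT116-shDKC1 CMC+Ter, against 1.89% and 1.43% in CMC-, and 2.63% and 4.15% in HCT116 CMC+Ter, against 1.68% and 1.67% in CMC-. In HEK293T the CMC+ values were thus the highest. HCT116 CMC+ had 1.98% and 1.68%, against 1.54% and 1.43% in its control. The log2 change was 1.47 ± 0.40 in HCT116-shDKC1 (edgeR adjusted p = 0.00137), 1.05 ± 0.45 in HCT116 (adjusted p = 0.0416) and 0.19 in HEK293T (adjusted p = 0.663). The HCT116 call was lost without any 1 of its 4 libraries, at 0.64 to 1.30, and the HCT116-shDKC1 call without either replicate 2 library, at 1.19.

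RPL15, of the same subunit, was called in HEK293T, with 11.3% and 8.96% in CMC+Ter, 6.74% and 5.26% in CMC+, and 3.64% and 5.19% in CMC-. Its log2 change was 1.25 ± 0.46 (edgeR adjusted p = 0.0404), and the call was lost without any 1 of the 4 CMC+Ter and CMC- libraries, at 0.84 to 1.73. HCT116 CMC+Ter had 14.3% and 15.9%, against 8.28% and 2.21% in CMC-. HCT116-shDKC1 listed it in replicate 1, with 7.69% in CMC+Ter, against 3.41% in CMC-. The 31 bases around it also match the pseudogene RPL15P3.

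PKM, the glycolytic pyruvate kinase, had the largest log2 change of the context in HCT116. It had 23.2% and 10.0% in HCT116-shDKC1 CMC+Ter, against 4.90% and 7.81% in CMC-, and 23.7% and 14.1% in HCT116 CMC+Ter, against 3.09% and 3.82% in CMC-. HEK293T CMC+Ter listed it in replicate 2, with 8.17%, against 4.18% in CMC-. HEK293T CMC+ listed it in replicate 1, with 4.55%, against 4.53% in CMC-. The HCT116 groups stood far apart, while in HCT116-shDKC1 replicate 2 the treated value was close to its control. Its fitted log2 change was 1.30 ± 0.49 in HCT116-shDKC1 (edgeR adjusted p = 0.0229) and 2.36 ± 0.58 in HCT116 (adjusted p = 0.000309). The HCT116-shDKC1 call was lost without either replicate 1 library, at 0.35, and the HCT116 call without CMC+Ter replicate 1, at 1.84.

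IER3, an immediate early gene, had 21.4% and 25.5% in HCT116-shDKC1 CMC+Ter, against 10.1% and 8.25% in CMC-, and 20.4% and 19.1% in HCT116 CMC+Ter, against 9.52% and 9.30% in CMC-. The groups did not overlap in either population, which the listing favours. The log2 change was 1.39 ± 0.50 in HCT116-shDKC1 (edgeR adjusted p = 0.0156) and 1.06 ± 0.44 in HCT116 (adjusted p = 0.0346), and each call was lost without any 1 of its own 4 libraries, at 1.07 to 1.61 and 1.03 to 1.08. With TMM offsets the sign turned, to -0.06 in HCT116-shDKC1 and -0.41 in HCT116.

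MTRNR2L1 is a nuclear gene that resembles the mitochondrial 16S ribosomal RNA gene MT-RNR2, so its reads are uncertain. It had 39.1% and 50.0% in HCT116-shDKC1 CMC+Ter, against 17.4% and 15.7% in CMC-, and 50.0% and 36.0% in HCT116 CMC+Ter, against 16.7% and 16.7% in CMC-, from 20 to 54 covering reads. Its fitted log2 change was 1.41 ± 0.49 in HCT116-shDKC1 (edgeR adjusted p = 0.0120) and 1.33 ± 0.47 in HCT116 (adjusted p = 0.0123). The HCT116-shDKC1 call was lost without either replicate 1 library or CMC- replicate 2, at 1.15 to 1.65. The HCT116 call was lost without CMC- replicate 1 or either replicate 2 library, at 1.09 to 1.57.

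**Figure D5:**
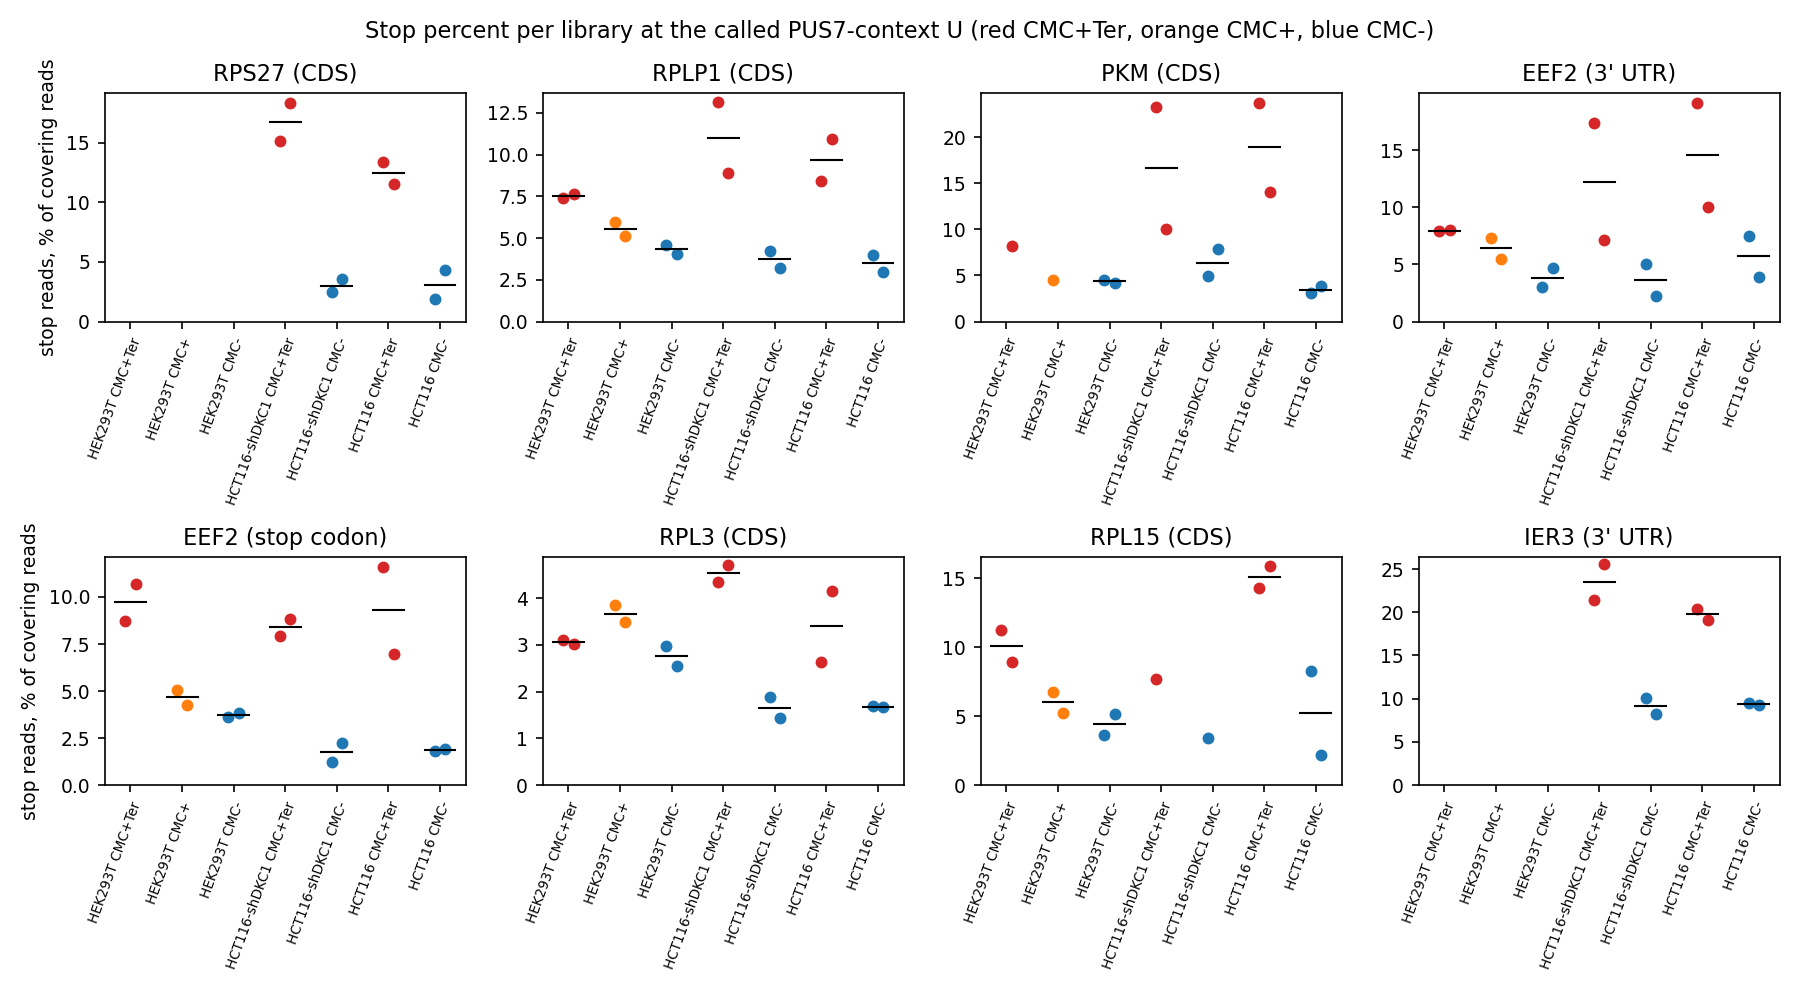
Stop reads as a percentage of covering reads at 8 called PUS7-context uridines in the libraries that listed them (red CMC+Ter, orange CMC+, blue CMC-). The HCT116 CMC+ libraries are not shown. Points are libraries and lines are means of 2. RPS27, with 15.2% and 18.3% in HCT116-shDKC1 CMC+Ter, stands far above its controls, and RPL3 in HEK293T, with 3.11% and 3.02% in CMC+Ter, lies close to its controls.

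The knockdown of DKC1 was compared by testing the difference in the CMC+Ter response itself. Of 15 PUS7-context uridines 0 were called higher, beside 0% of all positions, and 0 lower, beside 0.0115%. None had an unadjusted edgeR p under 0.05, and DESeq2 called 0. The log2 difference, HCT116-shDKC1 minus HCT116, had a median of 0.08 (range -1.06 to 0.52) with 11 of 15 above 0, against -0.07 over all positions. PKM had the lowest p, with a difference of -1.06 ± 0.74 (edgeR adjusted p = 1.00). RPS27 differed by 0.52 ± 0.61 (edgeR adjusted p = 1.00) and the EEF2 stop codon by -0.05 ± 0.71. The other 3 of the 5 with the lowest p were uridines of MTRNR2L12 on chromosome 3, whose 31 bases also occur in MT-RNR2. They differed by 0.37 ± 0.39 at 96617817, 0.35 ± 0.38 at 96617950 and -0.41 ± 0.58 at 96617927. With SEs of this size, a p above the threshold does not show that the populations respond alike.

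Fits on a comparison's own 2 tables, added after the data had been seen, tested more of the context. In HEK293T CMC+Ter 4 of 38 (10.5%) were called, beside 10.7% of all positions and 15.9% of other mRNA uridines. In HEK293T CMC+ it was 0 of 39, beside 0.795% and 0%. In HCT116-shDKC1 it was 5 of 24 (20.8%), beside 13.1% and 18.5%, and in HCT116 CMC+Ter 7 of 21 (33.3%), beside 16.5% and 24.2%. The median log2 change of the context lay below that of other mRNA uridines in each of these 4 fits. It was 0.70 against 0.74 in HEK293T CMC+Ter, 0.35 against 0.36 in HEK293T CMC+, 0.58 against 0.63 in HCT116-shDKC1 and 0.61 against 0.69 in HCT116 CMC+Ter. HNRNPA2B1, an RNA-binding protein with 18 PUS7-context positions, was added in HEK293T. It had 19.9% and 20.6% in CMC+Ter, against 8.08% and 4.14% in CMC-, a log2 change of 1.71 ± 0.46 (edgeR adjusted p = 0.00596). In HCT116 CMC+Ter the same position had 23.8% and 24.0%, against 7.14% and 8.20% in CMC-. HCT116-shDKC1 CMC+Ter replicate 2 had 16.1%, against 5.71% in CMC-. HEK293T CMC+ replicate 2 had 5.98%, against 4.14% in CMC-, and HCT116 CMC+ replicate 1 had 12.0%, against 7.24% in its control. ACTG1 was added in HCT116 at its stop codon with 1.20 ± 0.49 (edgeR adjusted p = 0.0426), and RPL15 with 1.58 ± 0.62 (adjusted p = 0.0334).

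Replicates agreed loosely. Of PUS7-context uridines listed in both tables of a group, a fold of at least 2 in both was found for 35 of 141 (24.8%) in HEK293T CMC+Ter, beside 17.1% of all positions and 22.9% of other mRNA uridines. In HEK293T CMC+ it was 17 of 193 (8.81%), beside 4.41% and 6.70%. In HCT116-shDKC1 CMC+Ter it was 13 of 46 (28.3%), beside 15.3% and 24.0%, in HCT116 CMC+Ter 18 of 52 (34.6%), beside 18.8% and 29.3%, and in HCT116 CMC+ 6 of 69 (8.70%), beside 4.34% and 7.34%. These shares were a few percentage points above those of other mRNA uridines in each group, untested. A fold of at least 4 in both tables was found for only 0 to 2 positions of the context per group, too few to order the classes. It was 2 of 141 (1.42%) against 1.52% of other mRNA uridines in HEK293T CMC+Ter and 0 of 193 (0%) against 0.218% in HEK293T CMC+. In HCT116-shDKC1 CMC+Ter it was 1 of 46 (2.17%) against 3.28%. It was 1 of 52 (1.92%) against 3.72% in HCT116 CMC+Ter and 0 of 69 (0%) against 0.365% in HCT116 CMC+. As a description over these positions, which share libraries, Pearson's r was taken between the replicates' log2 folds. In the order just given it was 0.31, 0.26, 0.44, 0.61 and 0.08 for the context. For other mRNA uridines it was 0.23, 0.19, 0.44, 0.43 and 0.17. The listing keeps log2 folds at or above 0 in both replicates, so r describes listed positions only.

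A called uridine was mostly not the highest of its surroundings. Within 5 bases either side, the 10 positions shown first had 0 to 8 listed neighbours of any base in the CMC+Ter tables, with 0 for HNRNPA2B1 in 3 tables. In the 48 gene and table pairs with a listed neighbour the target uridine had the highest fold in 19. It was highest in 4 of 6 tables at the EEF2 3′ UTR, 3 of 6 at the EEF2 stop codon, 4 of 4 at MTRNR2L1 and 3 of 5 at PKM. It was highest in 1 of 2 at HNRNPA2B1, 1 of 6 at RPLP1, 1 of 5 at RPL15, 1 of 4 at RPS27, 1 of 4 at IER3 and 0 of 6 at RPL3. At RPLP1, RPL15, RPS27, IER3 and RPL3 a neighbouring base mostly carried the higher fold.

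Of 16 genes for pseudouridine synthases and H/ACA proteins, NHP2, an H/ACA core protein, was the only one with any PUS7-context uridine, and it had 2, a count too small to set against the share of all listed mRNA uridines. The coding uridine at chr5:178150894 had 6 stops in 19 reads in HCT116 CMC+Ter replicate 2, or 31.6% (95% Wilson interval 15.4 to 54.0), against 4 in 31, or 12.9% (5.13 to 28.9), in CMC-. It had 27.6% in HCT116 CMC+ replicate 1, against 14.3% in CMC-. The 3′ UTR uridine at chr5:178149520 had 18.7% in HEK293T CMC+ replicate 2, against 15.8% in CMC-. The intervals overlap, cover counting error only, and neither position was among those tested. PUS7 had 7 listed positions, of which 4 were mRNA uridines and 0 in its own context, and PUS3 and PUS10 had none listed.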

How the data were processed

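Polyadenylated RNA of HEK293T, HCT116 and HCT116-shDKC1 was measured in 16 libraries. The submitters' processing notes name cutadapt 2.8, STAR and the build hg38. The deposited tables hold stop and covering reads as whole counts in the HCT116 and HCT116-shDKC1 CMC+Ter tables. In the other tables the authors deposited expected counts, which are fractional and were rounded here before testing. The authors also deposited stop reads as RPM, the stop ratio as a fraction and the treated over control ratio as a fold, which were used as given. Library totals were taken from counts over RPM, per the file headers. No columns were left unmapped (0).

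The members and gene lists were chosen with earlier results of these data known. Identical 31-base sequences were counted once in shares and medians. Regions came from 1 coding transcript per gene of GENCODE 29. They covered 95.1% of mRNA positions, and the base agreed at 100% of these. Position tests used edgeR 4.0.16 (quasi-likelihood, log covering reads as offset) in R 4.3.3 and, as an alternative, DESeq2 1.42.0. Scripts ran on Python 3.11.15, pandas 2.3.3, numpy 2.4.6 and matplotlib 3.10.9. The tests were checked on simulated counts, to which the listing minimums were not applied. Each SE was derived as the absolute log2 change over the normal deviate that matches its two-sided p. Named positions are called ones (up to 10 per comparison), the 5 with the lowest p for the knockdown difference, those on the pathway list and 5 stop codons with most tables, of which 1 is not reported here. HNRNPA2B1, the most-listed genes and RPL19 were named after their values were seen. Intervals and totals cover counting error only, and the labels name no molecular identifiers.

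The replicate number was a block because the design text and the tables set each treated library beside the CMC- library of its number. Same-numbered libraries deviated together with correlations of 0.35 (HEK293T CMC+ and CMC-), 0.061 (CMC+Ter and CMC+), 0.097 (CMC+Ter and CMC-), 0.33 (HCT116-shDKC1 CMC+Ter and CMC-), 0.16 (HCT116 CMC+Ter and CMC-) and 0.57 (HCT116 CMC+ and CMC-). Alternatives were library totals or TMM as offset, DESeq2, no filter, no block, each library left out, own tables only, coverage minimums of 20 and 100, a pseudocount of 0.5 and other comparison classes.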

Additional observations from a re-analysis of the deposited data

How the results depend on the processing

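With 3, 1, 8 and 8 PUS7-context uridines called in HEK293T CMC+Ter against CMC-, HEK293T CMC+Ter against CMC+, HCT116-shDKC1 and HCT116, TMM on stop reads left 0, 0, 1 and 1, DESeq2 0, 0, 4 and 4, and library totals 4, 1, 3 and 3. Leaving out 1 library gave 0 to 3, 0 to 1, 4 to 8 and 3 to 8, and own tables gave 5 in HCT116-shDKC1. TMM and library totals ignore covering reads and moved the median log2 change of all positions to 0.03 and 0.82 in HEK293T CMC+Ter (0.53 with covering reads), -0.05 and 0.39 in HCT116-shDKC1 (0.57) and -0.04 and 0.44 in HCT116 (0.64). With TMM, RPL15 in HEK293T was at -0.47 and IER3 at -0.060 in HCT116-shDKC1 and -0.41 in HCT116. Without the replicate block the 4 counts were 3, 1, 8 and 6. The 3 comparisons with 0 calls stayed at 0 under every alternative run.

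The log2 difference in medians between PUS7-context and other mRNA uridines, -0.053, -0.002, -0.040, -0.081 and -0.016 in HEK293T CMC+Ter, HEK293T CMC+, HCT116-shDKC1 CMC+Ter, HCT116 CMC+Ter and HCT116 CMC+, changed as follows. At 100 covering reads it was -0.036 in HEK293T CMC+, -0.206 in HCT116-shDKC1 and -0.107 in HCT116 CMC+. Adding 0.5 gave -0.00073 in HEK293T CMC+Ter and 0.0043 in HCT116-shDKC1. Positions in both tables gave -0.0013, 0.023, 0.047 and -0.067 in HEK293T CMC+Ter, HEK293T CMC+, HCT116-shDKC1 and HCT116 CMC+. Within genes it was 0.034, 0.056 and 0.053 in HEK293T CMC+Ter, HCT116-shDKC1 and HCT116 CMC+Ter. Against uridines followed by A it was 0.074, 0.030, 0.070 and 0.077, and against those followed by A and R without U at -2 0.044, 0.015, 0.116 and 0.082, in HEK293T CMC+Ter, HEK293T CMC+, HCT116-shDKC1 and HCT116 CMC+Ter. Single tables ran from -0.079 to -0.028, -0.011 to 0.006, -0.072 to -0.009, -0.152 to -0.010 and -0.047 to 0.015. Over the 6 CMC+Ter tables the mean was -0.068 to -0.040 without any 1 table (exact permutation p = 0.0625, the smallest 5 tables allow). By the same exact permutation test it was -0.13 at 100 covering reads, -0.063 at 20 covering reads (p = 0.0938), -0.020 with 0.5 added (p = 0.781), 0.048 within genes (p = 0.281), 0.013 over positions in both tables (p = 0.688), 0.074 against uridines followed by A and 0.080 against those followed by A and R without U at -2 (p = 0.03125 each). The causes were not tested.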
